A study of Mus musculus with 40 samples.

Results

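Neutrophils store bactericidal proteins in granules that are filled at different steps of their formation in bone marrow. The contents of the primary (azurophil) granule are made first, at the promyelocyte step: Mpo encodes myeloperoxidase, which makes hypochlorous acid, and Elane, Prtn3 and Ctsg encode the serine proteases neutrophil elastase, proteinase 3 and cathepsin G. These proteins last into the blood neutrophil after their transcripts have largely gone. Padi4 encodes peptidylarginine deiminase 4, a calcium-dependent enzyme that turns arginine of histones into citrulline and opens chromatin when neutrophils release DNA as extracellular traps, and Padi2 encodes the related deiminase 2, which is widely expressed in white blood cells. Myeloperoxidase and proteinase 3 are the targets of anti-neutrophil cytoplasmic antibodies, and citrullinated proteins are targets in rheumatoid arthritis.

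The mRNA of these 6 genes (Mpo, Elane, Prtn3, Ctsg, Padi4 and Padi2) was followed in whole blood of 40 mice. They were chosen by name, as 6 of the 54532 genes in the deposited table of FPKM (fragments per kilobase of gene, scaled for library size). All mice were 7-week-old females, of genotype Ifnar1+/+ or Ifnar1-/- for a chain of the type I interferon receptor. Pristane, an oil spelled priatane in the sample labels, was injected to bring on lupus-like disease after 3 days of PBS or of spermine, a polyamine. The groups were PBS-pretreated Ifnar1-/- mice on day 4 and on day 6 of pristane (5 each), uninduced Ifnar1-/- mice (3), spermine-pretreated Ifnar1+/+ mice on day 4 and on day 6 (6 each), PBS-pretreated Ifnar1+/+ mice on day 4 and on day 6 (6 each), and uninduced Ifnar1+/+ mice (3). The blood came from the venous plexus behind the eye. For uninduced mice no pretreatment is labelled, so pristane and PBS cannot be told apart in comparisons with them, and no group had spermine without pristane. The labels call the samples biological replicates and do not say whether litters or cages were shared.

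Only Prtn3 and Elane are close neighbours among the 6 genes in the mouse genome (GRCm38, gene models of GENCODE M21). Prtn3 (chr10:79874476-79883174, plus strand) and Elane (chr10:79886247-79888215, plus strand) follow each other with 3072 bases between them. Padi4 (chr4:140745865-140774236, minus strand) and Padi2 (chr4:140906344-140952586, plus strand) are 132107 bases apart, with Padi3 and Padi1 between them. Mpo is at chr11:87793581-87804413 (plus strand) and Ctsg at chr14:56099881-56102574 (minus strand). None of the 6 shares exonic bases with a gene on its own strand. On the opposite strand 512 exonic bases of Mpo overlap Gm11505, 159 of Prtn3 overlap Plppr3 and 149 of Padi2 overlap Gm13031, and the sources used here do not say whether the counting used strand.

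Promoters of the primary granule genes shared 1 short sequence that was not found in those of the deiminase genes. PU.1, MYB and C/EBP factors drive primary granule genes in myeloid progenitors, so RefSeq windows of 300 bases around each gene's start were searched on both strands for AGGAAGT (the core of PU.1 sites), AACGG (the core of MYB sites) and TTGCNNAA (C/EBP). AGGAAGT occurred once in each of the windows of Mpo (position -223 from the RefSeq start), Elane (-84), Prtn3 (-94) and Ctsg (-206), all on the gene's strand, and in neither deiminase window. It occurs in 9.35% of 32851 mouse promoters, so its absence from the deiminase windows is what most promoters show. AACGG occurred in Elane (-50) and Prtn3 (-55) and occurs in 17.4% of promoters, and TTGCNNAA, found in 10.8% of promoters, occurred in none of the 6. No match shared letters with another. A match is a run of letters and not a shown binding site. The neighbours Prtn3 and Elane and the 2 deiminase genes are printed here because the expression results turn on Prtn3 and Padi4. Each line is the part of the RefSeq window (GRCm38.p6) before the coding transcripts that begin near the RefSeq start, 5′ to 3′ on the gene's strand. AGGAAGT is in capitals, and the AACGG matches are not printed in full. The Prtn3 stretch lies inside the GENCODE gene model, which begins at chr10:79874476.
Prtn3 (chr10:79879417-79879613, plus strand): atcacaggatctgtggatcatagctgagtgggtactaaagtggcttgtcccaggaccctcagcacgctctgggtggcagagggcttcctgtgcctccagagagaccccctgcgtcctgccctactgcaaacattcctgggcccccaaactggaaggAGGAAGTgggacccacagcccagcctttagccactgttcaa
Elane (chr10:79886062-79886246, plus strand): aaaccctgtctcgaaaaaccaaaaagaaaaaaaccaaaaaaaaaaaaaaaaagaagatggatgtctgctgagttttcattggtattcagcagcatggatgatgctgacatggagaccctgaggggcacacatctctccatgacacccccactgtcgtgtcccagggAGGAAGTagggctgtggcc
Padi4 (chr4:140774237-140774453, minus strand): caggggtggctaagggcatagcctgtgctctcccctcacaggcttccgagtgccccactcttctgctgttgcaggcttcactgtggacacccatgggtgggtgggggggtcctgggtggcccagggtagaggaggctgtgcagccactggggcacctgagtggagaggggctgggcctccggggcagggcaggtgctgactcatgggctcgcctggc
Padi2 (chr4:140906110-140906343, plus strand): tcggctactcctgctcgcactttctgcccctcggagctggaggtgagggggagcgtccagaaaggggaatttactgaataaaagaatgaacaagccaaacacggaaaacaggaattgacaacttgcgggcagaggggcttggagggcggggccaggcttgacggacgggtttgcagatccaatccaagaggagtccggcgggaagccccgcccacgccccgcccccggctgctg

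The libraries held 9156431 to 14058050 recovered reads, of which hemoglobin genes took 26.5% to 62.2%. Whole-gene Ifnar1 was at 13.7 to 23.9 FPKM in mice labelled Ifnar1-/-, against 5.85 to 10.3 FPKM in Ifnar1+/+ mice, which goes against a loss of the whole transcript. A value over the whole gene does not check a deleted part, and these mice are called labelled Ifnar1-/- below. In 7 libraries under 1.2% of the reads outside hemoglobin genes were mitochondrial: PBS day 4 mice 1, 3 and 4, PBS day 6 mice 4 and 6, spermine day 6 mouse 2 and uninduced mouse 3, all Ifnar1+/+. Results that these libraries decide are given with and without them.

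Of the primary granule genes, Mpo, Elane and Ctsg were near the detection limit in every group. Mpo had 69 reads in all 40 libraries together, no reads in 17 libraries and a highest level of 0.286 FPKM, which was 7 reads in 1 labelled Ifnar1-/- mouse on day 6. Elane had 116 reads, none in 13 libraries, and reached 1 FPKM in 1 library (1.04 FPKM, 9 reads, spermine day 6). Ctsg had 52 reads, none in 21 libraries, and at most 0.666 FPKM (8 reads, labelled Ifnar1-/- on day 6). A library with none of these reads could still hold up to 3 by counting error alone, which for Mpo is 0.0331 to 0.181 FPKM and for Elane 0.115 to 0.630 FPKM. The deiminase genes were well measured by comparison, with 21387 reads for Padi4 and 11133 for Padi2.

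Most of the few reads of Mpo, Elane and Ctsg came from mice given pristane. Mpo had 15 and 10 reads in the labelled Ifnar1-/- groups on day 4 and day 6, 22 and 9 in the spermine groups and 8 and 4 in the Ifnar1+/+ PBS groups, against 1 in the 3 uninduced labelled Ifnar1-/- mice and 0 in the 3 uninduced Ifnar1+/+ mice. Elane had 26 and 3, 20 and 29, and 18 and 19 reads in the same pristane groups, against 0 and 1 in the uninduced mice. Ctsg had 14 and 13, 12 and 7, and 4 and 1 reads, against 1 and 0. Reads per group also follow the number and depth of the libraries, and these 3 genes did not reach the filter of 1 FPKM in 3 libraries, so they were not in the main test. Without the filter none of them was called in any comparison, the lowest limma adjusted p being 0.132, for Ctsg in labelled Ifnar1-/- against Ifnar1+/+ mice on day 6 (log2 difference 0.30 ± 0.096 SE, unadjusted p = 0.00335), and the lowest with voom on recovered reads 0.0830, for Elane in labelled Ifnar1-/- mice on day 4 against uninduced ones. Differences in Mpo, Elane and Ctsg were thus not detectable at this depth.

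**Figure D1:**
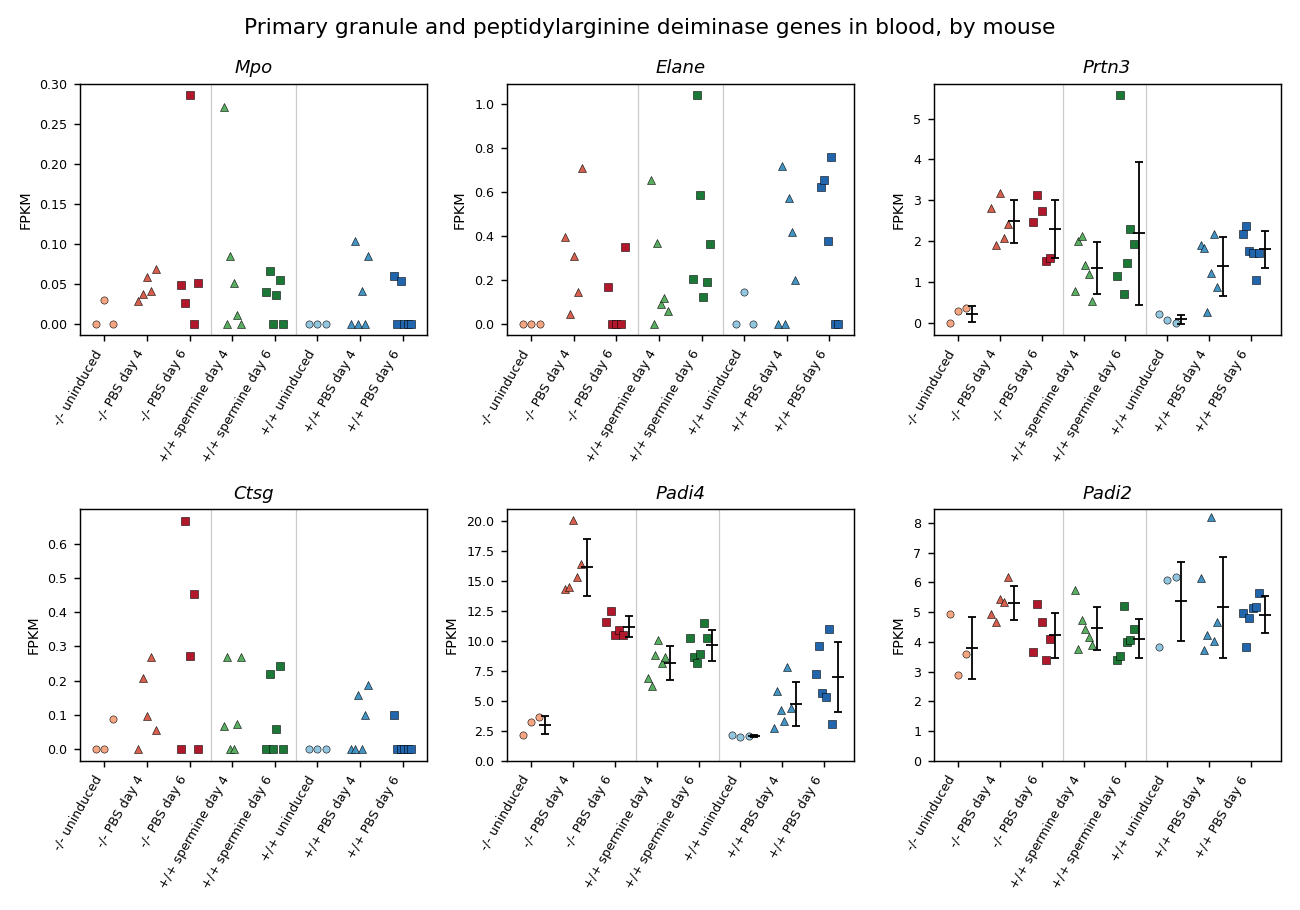
Level of each gene (FPKM, linear axis) in each mouse, by group; -/- is labelled Ifnar1-/- and +/+ is Ifnar1+/+. Bars beside Prtn3, Padi4 and Padi2 are the group mean ± SD. Padi4 is at 14.3 to 20.0 FPKM in the 5 labelled Ifnar1-/- mice on day 4, above every other mouse, while Mpo stays at or under 0.286 FPKM.

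Prtn3 was the 1 primary granule gene with enough reads to test (1382 in all). In uninduced mice it was at 0, 0.290 and 0.371 FPKM (labelled Ifnar1-/-) and at 0.214, 0.0825 and 0 FPKM (Ifnar1+/+). In labelled Ifnar1-/- mice given pristane it was at 2.81, 1.92, 3.19, 2.09 and 2.42 FPKM on day 4 and at 2.47, 3.13, 2.74, 1.53 and 1.59 FPKM on day 6. In Ifnar1+/+ mice given PBS its lowest, median and highest levels were 0.284, 1.53 and 2.19 FPKM on day 4 and 1.06, 1.74 and 2.37 FPKM on day 6. Every mouse given pristane after PBS was above every uninduced mouse of its genotype.

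On the log2(FPKM + 1) scale, which understates changes of low genes, Prtn3 rose in all 4 comparisons with uninduced mice. The change was 1.06 ± 0.28 (log2 ± SE, limma adjusted p = 0.034) on day 4 and 1.34 ± 0.28 (adjusted p = 0.00153) on day 6 in Ifnar1+/+ mice. It was 1.51 ± 0.29 (adjusted p = 0.000245) and 1.42 ± 0.29 (adjusted p = 0.000791) in labelled Ifnar1-/- mice on the same days. Prtn3 passed the filter through the mice given pristane alone, since no uninduced mouse reached 1 FPKM, so its being among the tested genes already carries part of this difference. The day 4 change in Ifnar1+/+ mice missed the threshold without the filter (adjusted p = 0.0598), without PBS mouse 1, 2 or 5 or any 1 of the uninduced mice (0.96 to 1.13), with only these groups in the fit (adjusted p = 0.204) and with fixed library totals (0.84 and 0.90). On day 6 in Ifnar1+/+ mice it missed it with a fixed total with hemoglobin genes (1.11, adjusted p = 0.0935).

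Between genotypes and pretreatments no difference in Prtn3 was called. It averaged 2.49 ± 0.518 FPKM in labelled Ifnar1-/- mice and 1.39 ± 0.721 FPKM in Ifnar1+/+ mice on day 4 (SD, n = 5 and 6), a log2 difference of 0.60 ± 0.24 (limma adjusted p = 0.0762), with 3 of 5 mice above every Ifnar1+/+ mouse. Without Ifnar1+/+ PBS mouse 5 this difference was called (0.69, adjusted p = 0.0396), as it was with fixed library totals (1.01 and 1.25). Both totals also raised the median of all genes in this comparison. Without the 7 libraries with few mitochondrial reads the difference was 0.42 and was not called (limma adjusted p = 0.344). After spermine the level on day 4 was 1.35 ± 0.638 FPKM, against 1.39 ± 0.721 FPKM after PBS (SD, n = 6 each), and the 95% interval of the log2 difference ran from -0.46 to 0.46. On day 6 one spermine mouse stood at 5.57 FPKM and the other 5 at 0.722 to 2.31 FPKM, against 1.06 to 2.37 FPKM after PBS (log2 difference 0.06 ± 0.23, adjusted p = 0.921). The high mouse is 1 of the 7 libraries with few mitochondrial reads.

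Padi4, the histone-citrullinating enzyme, was low in uninduced blood and higher after pristane in both genotypes. Uninduced labelled Ifnar1-/- mice had 2.18, 3.24 and 3.61 FPKM and uninduced Ifnar1+/+ mice 2.18, 2.01 and 2.05 FPKM. On day 4 of pristane labelled Ifnar1-/- mice had 14.3, 14.5, 20.0, 15.3 and 16.4 FPKM, and on day 6 they had 11.6, 12.5, 10.4, 10.9 and 10.5 FPKM. Ifnar1+/+ mice given PBS had 2.73, 4.30 and 7.81 FPKM (lowest, median and highest) on day 4 and 3.04, 6.42 and 11.0 FPKM on day 6. No mouse given pristane overlapped the uninduced mice of its genotype. The Ifnar1+/+ mice spread widely on both days, and the labelled Ifnar1-/- mice lay close together on day 6.

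Against uninduced mice, Padi4 changed by 0.83 ± 0.22 (log2 ± SE, limma adjusted p = 0.0378) on day 4 and by 1.28 ± 0.22 (adjusted p = 0.000159) on day 6 in Ifnar1+/+ mice, with 6 of 6 mice higher each time. In labelled Ifnar1-/- mice it changed by 2.10 ± 0.23 (adjusted p = 2.12e-08) on day 4 and by 1.62 ± 0.23 (adjusted p = 3.9e-06) on day 6, with 5 of 5 mice higher each time. Of the 3 genes tested, Padi4 and Prtn3 were called higher in each of these 4 comparisons, and since Prtn3 passed the filter through mice given pristane alone, nothing is read from its part of the count. Of all 11829 tested genes 1.68%, 5.59%, 6.64% and 8.57% were called higher in the same comparisons, and 2.1%, 8.17%, 8.12% and 11.8% in either direction. In whole blood, more neutrophils and more Padi4 mRNA in each neutrophil cannot be told apart. The day 4 call in Ifnar1+/+ mice was lost without PBS mouse 2, 5 or 6 or any 1 of the uninduced mice (0.69 to 0.85), without the filter (adjusted p = 0.0618), with only these groups in the fit (adjusted p = 0.254) and with voom and no filter (1.14, adjusted p = 0.117). With only the groups compared in the fit the day 6 call in Ifnar1+/+ mice was also lost (adjusted p = 0.059). A fixed library total without hemoglobin genes ended both calls in Ifnar1+/+ mice (0.58, adjusted p = 0.398, on day 4 and 1.08, adjusted p = 0.0872, on day 6). With libraries set to a fixed total with hemoglobin genes, Padi4 was called against uninduced mice only in labelled Ifnar1-/- mice on day 4 (2.72), with 0.58 and 1.07 in Ifnar1+/+ and 1.25 in labelled Ifnar1-/- day 6 mice.

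Of the Padi4 comparisons on the same day, the difference between genotypes on day 4 had the largest value. Labelled Ifnar1-/- mice averaged 16.1 ± 2.35 FPKM and Ifnar1+/+ mice 4.71 ± 1.85 FPKM (SD, n = 5 and 6), a log2 difference of 1.63 ± 0.19 (limma adjusted p = 1.56e-07). All 5 labelled Ifnar1-/- mice were above all 6 Ifnar1+/+ mice, and 99.7% of tested genes had a lower log2 difference. Padi4 was the 1 of the 6 genes called here, where 9.23% of all tested genes were called higher and 18.5% in either direction. Without the 7 libraries with few mitochondrial reads the difference was 1.31 (adjusted p = 5.72e-06). Transcripts of other cells moved in the same comparison: of 10 erythroid markers 8 were lower (median -1.87), of 7 tested basophil and mast cell markers 5 were higher (median 0.75), and hemoglobin genes took 38.1 ± 8.37% of reads in labelled Ifnar1-/- and 51.1 ± 3.71% in Ifnar1+/+ mice (exact permutation p = 0.013, 0.117 adjusted over 36 tests). Summed levels were 3857 to 10380 FPKM in labelled Ifnar1-/- and 11997 to 39500 FPKM in Ifnar1+/+ mice for the erythroid list, and 5.51 to 20.7 and 1.78 to 4.59 FPKM for the basophil list. The part of these cells in the Padi4 difference was not tested.

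On day 6 the genotype difference in Padi4 was smaller, and uninduced mice showed none that passed the test. Labelled Ifnar1-/- mice averaged 11.2 ± 0.862 FPKM on day 6 and Ifnar1+/+ mice 6.96 ± 2.92 FPKM (SD, n = 5 and 6), a log2 difference of 0.70 ± 0.19 (limma adjusted p = 0.0328), with 2 of 5 mice above every Ifnar1+/+ mouse. Padi4 was again the 1 gene called, beside 1.52% of all tested genes called higher and 3.2% in either direction. This call was lost without PBS mouse 3, 4 or 6 or any 1 of the 5 labelled Ifnar1-/- mice (0.52 to 0.72, adjusted p 0.0541 to 0.119) and without the libraries with few mitochondrial reads (0.42, adjusted p = 0.125). It was also lost without the filter, with only these groups in the fit and with fixed library totals (0.56 to 0.70). In uninduced mice the averages were 3.01 ± 0.740 FPKM in labelled Ifnar1-/- and 2.08 ± 0.0884 FPKM in Ifnar1+/+ mice (SD, n = 3 each; log2 difference 0.36 ± 0.26, adjusted p = 0.639), and none of the 6 genes was called, beside 0.406% of all tested genes.

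Over days the Padi4 changes had opposite signs in the 2 genotypes, and neither they nor their difference passed the test. From day 4 onward Padi4 changed by -0.48 ± 0.20 (day 6 minus day 4, limma adjusted p = 0.179) in labelled Ifnar1-/- mice, where all 5 day 6 mice were below all 5 day 4 mice. In Ifnar1+/+ mice given PBS it changed by 0.45 ± 0.18 (adjusted p = 0.211) with overlapping days. The difference between these 2 changes was -0.93 ± 0.27 (adjusted p = 0.062, beside 1.67% of tested genes called), and the difference between the day 4 pristane changes of the 2 genotypes was 1.27 ± 0.32 (adjusted p = 0.0695, beside 0.254%). The difference in course passed the threshold without PBS day 4 mouse 2 or 5, PBS day 6 mouse 4 or 6 or labelled Ifnar1-/- day 6 mouse 2 (-1.11 to -0.97), without the 7 libraries with few mitochondrial reads (-0.89, adjusted p = 0.0275), with voom and no filter (-1.04, adjusted p = 0.0134) and with fixed library totals (-1.61 and -1.96). The day 4 difference passed it without PBS mouse 5 (1.41, adjusted p = 0.0139) and with a fixed total with hemoglobin genes (2.14, adjusted p = 0.0288), and was 0.95 (adjusted p = 0.191) without the 7 libraries. The change over days in labelled Ifnar1-/- mice passed it with only these groups in the fit (-0.48, adjusted p = 0.0146), without the 7 libraries (adjusted p = 0.0296), with voom and no filter (-0.51, adjusted p = 0.0268) and with fixed library totals (-1.11 and -1.47). Hemoglobin genes took 52.8 ± 6.76% of reads on day 6 and 38.1 ± 8.37% on day 4 in labelled Ifnar1-/- mice (SD, n = 5 each; exact permutation p = 0.0238, 0.122 adjusted over 36 tests), and 9 of 10 erythroid markers and 7 of 7 tested platelet markers were higher on day 6 (median 2.02 and 1.10). Their part in the Padi4 change was not tested.

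Spermine given before pristane went with higher Padi4 on day 4. Levels were 6.23, 8.40 and 10.1 FPKM (lowest, median and highest of 6) after spermine, against 2.73, 4.30 and 7.81 FPKM after PBS. The averages were 8.13 ± 1.39 FPKM and 4.71 ± 1.85 FPKM (SD, n = 6 each), and 4 of 6 spermine mice were above every PBS mouse. The log2 difference was 0.72 ± 0.18 (limma adjusted p = 0.00632), and Padi4 was the 1 of the 6 genes called, beside 2.65% of all tested genes called higher and 9.13% in either direction. The 3 PBS libraries with few mitochondrial reads were the 3 lowest for Padi4, at 2.73, 3.29 and 4.20 FPKM, and without the 7 such libraries the difference was 0.40 and was not called (adjusted p = 0.228). The mitochondrial share was 2.04 ± 0.379% after spermine and 1.28 ± 0.423% after PBS, and hemoglobin genes took 39.9 ± 8.45% and 51.1 ± 3.71% of reads (exact permutation p = 0.013 and 0.00866, both 0.117 adjusted over 36 tests). Of 10 erythroid markers 8 were lower after spermine (median -2.52), and their part in the Padi4 difference was not tested.

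On day 6 of pristane Padi4 was at 8.14, 9.56 and 11.5 FPKM after spermine, against 3.04, 6.42 and 11.0 FPKM after PBS (lowest, median and highest of 6). The groups overlapped, with 1 of 6 spermine mice above every PBS mouse, and the log2 difference of 0.49 ± 0.18 was not called (limma adjusted p = 0.159, 95% interval 0.12 to 0.86). None of the 6 genes was called, beside 0.0423% of all tested genes. Without PBS mouse 5, the highest of its group, the difference was 0.63 and was called (adjusted p = 0.0456), and with a fixed library total with hemoglobin genes it was 1.03 (adjusted p = 0.0308). That total also raised the median of all genes in this comparison. Leaving out the 7 libraries with few mitochondrial reads gave a difference of 0.24, which was not called (limma adjusted p = 0.698). The change of the spermine difference between days was -0.23 ± 0.26 (adjusted p = 0.916, beside 0.0169% of tested genes called), so the days were not shown to differ. No gene of the 6 was called between days in either Ifnar1+/+ arm or in labelled Ifnar1-/- mice, beside 0.617% (spermine), 0.473% (PBS) and 6.21% (labelled Ifnar1-/-) of tested genes.

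**Figure D2:**
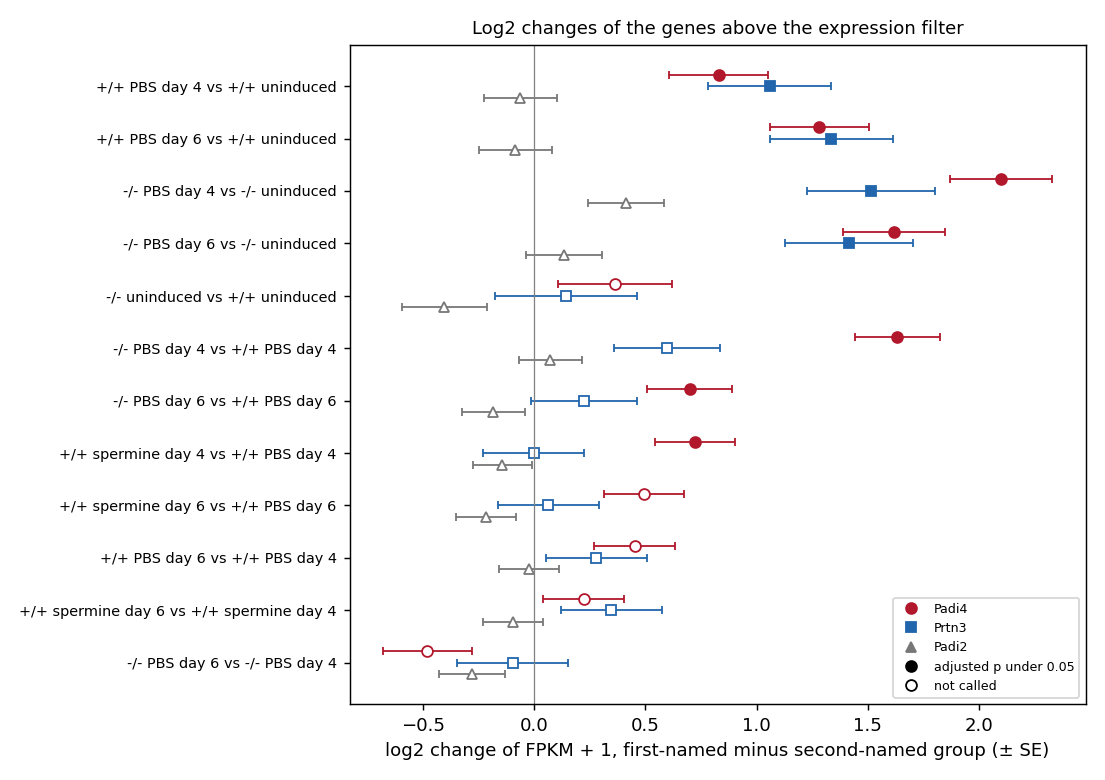
Log2 change (± SE, x axis) of Padi4, Prtn3 and Padi2 in each comparison, first-named minus second-named group; filled symbols have a limma adjusted p under 0.05. Padi4 is filled in 7 comparisons, with changes of 0.70 to 2.10, Prtn3 in the 4 comparisons with uninduced mice and Padi2 in none.

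Padi2, the second deiminase of white blood cells, was called in no comparison. It averaged 5.32 ± 0.577 FPKM in labelled Ifnar1-/- mice and 5.16 ± 1.71 FPKM in Ifnar1+/+ mice on day 4 (SD, n = 5 and 6; log2 difference 0.07 ± 0.14, 95% interval -0.21 to 0.36), the comparison in which Padi4 differed by 1.63. After spermine it averaged 4.46 ± 0.721 FPKM, against 5.16 ± 1.71 FPKM after PBS (log2 difference -0.14 ± 0.13, limma adjusted p = 0.662). With each library set to a fixed total without hemoglobin genes these values became 0.66 (adjusted p = 0.00134) and 0.48 (adjusted p = 0.00688), while the median of all genes shifted by 0.45 and 0.51 in the same comparisons. Of the differences between 2 groups the values farthest from 0 were 0.41 ± 0.17 in labelled Ifnar1-/- mice on day 4 against uninduced ones (adjusted p = 0.162) and -0.41 ± 0.19 in labelled Ifnar1-/- against Ifnar1+/+ uninduced mice (adjusted p = 0.521). The other deiminase genes, Padi1, Padi3 and Padi6, had 86, 181 and 11 reads in all and were not tested.

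The ratio of Padi4 to Padi2 FPKM within a library does not depend on the scaling between libraries. Its median was 1.01 (range 0.443 to 1.12) in uninduced, 2.89 (2.65 to 3.68) in day 4 and 2.56 (2.23 to 3.21) in day 6 labelled Ifnar1-/- mice. After spermine it was 1.91 (1.2 to 2.26) on day 4 and 2.38 (1.56 to 3.00) on day 6, and all of these mice were above 1. In Ifnar1+/+ mice it was 0.333 (0.329 to 0.571) uninduced, 0.966 (0.401 to 1.93) on day 4 and 1.31 (0.540 to 2.51) on day 6 after PBS. Padi4 thus exceeded Padi2 in 0 of 3 uninduced Ifnar1+/+ mice, and in 2 of 6 on day 4 and 5 of 6 on day 6 after PBS. The ratio shows that the 2 genes changed unequally and not that Padi2 stood still.

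**Figure D3:**
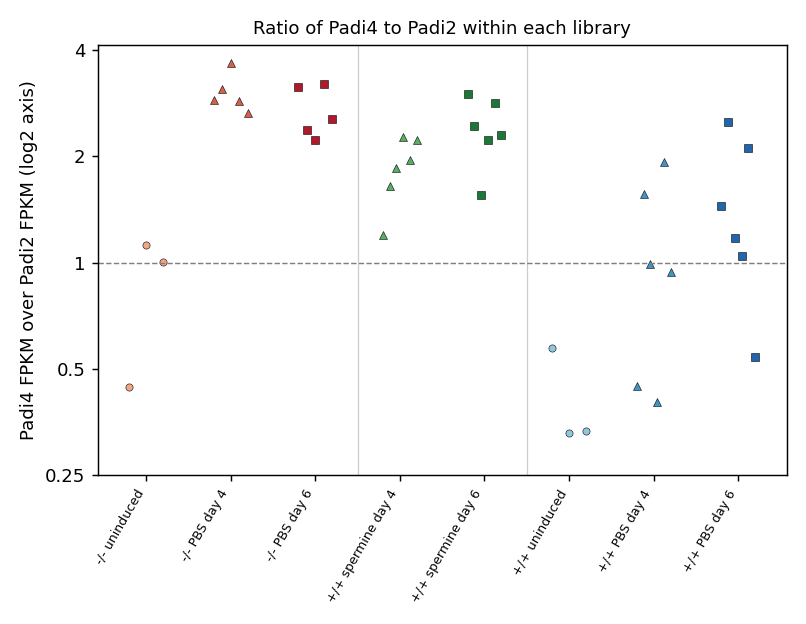
Ratio of Padi4 to Padi2 FPKM within each library (log2 axis), 1 point per mouse, by group, with a dashed line at 1. The 10 labelled Ifnar1-/- and the 12 spermine mice given pristane lie above 1, and the 3 uninduced Ifnar1+/+ mice lie between 0.329 and 0.571.

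Transcripts of mature neutrophils were higher in several comparisons in which Padi4 was. The summed level of 13 mature neutrophil markers (among them S100a8, S100a9, Retnlg, Csf3r, Cxcr2, Ly6g, Il1r2, Trem1, Clec4d, Mmp25, Fpr1 and Fpr2; none at 0 in all mice of a group) was 870 to 970 FPKM in uninduced, 6215 to 7753 FPKM in day 4 and 5316 to 8685 FPKM in day 6 labelled Ifnar1-/- mice. It was 2740 to 5591 FPKM on day 4 and 3904 to 10772 FPKM on day 6 after spermine. In Ifnar1+/+ mice it was 432 to 699 FPKM uninduced, 1048 to 3965 FPKM on day 4 and 1495 to 5474 FPKM on day 6 after PBS.

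Of these 13 markers, 9 rose on day 4 and 12 on day 6 in Ifnar1+/+ mice given PBS (median log2 change 1.28 and 1.91), and 13 rose on both days in labelled Ifnar1-/- mice (2.24 and 2.20). In labelled Ifnar1-/- against Ifnar1+/+ mice 12 of 13 were higher on day 4 (median 1.41) and 3 on day 6 (median 0.47), and after spermine 11 of 13 on day 4 (median 1.02) and 0 on day 6 (median 0.35). The median of all tested genes lay between -0.03 and 0.02 in these comparisons. Without the 7 libraries with few mitochondrial reads 12 markers were still called between genotypes on day 4 (median 1.2), and 5 in place of 11 after spermine (median 0.49). With both fixed library totals 0 of 13 markers were called on day 4 in Ifnar1+/+ mice, although their median was 1.00 and 1.01, and 13 of 13 after spermine on day 4. Both totals also raised the median of all genes after spermine on day 4. The smallest p on day 4 belonged between genotypes to Trem1 (1.16 ± 0.13), Retnlg (2.10 ± 0.27) and the chemokine receptor Cxcr2 (1.33 ± 0.17), and after spermine Trem1 (0.82 ± 0.13), Cxcr2 (1.01 ± 0.17) and the G-CSF receptor Csf3r (1.03 ± 0.18). Padi4 itself changed by 1.63 and 0.72 in these comparisons.

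Relative to the mean log2 level of the 13 markers in the same mouse, the median of Padi4 was lower after pristane. The log2(FPKM + 1) scale used here understates the rise of a gene as low as Padi4 in uninduced mice. How much this lowers the medians was not tested. The Padi4 log2 level minus the marker mean had a median of -2.02 (range -2.44 to -1.84) in uninduced, -2.35 (-2.65 to -2.12) in day 4 and -2.77 (-2.92 to -2.51) in day 6 labelled Ifnar1-/- mice. It was -2.52 and -2.75 on the 2 days after spermine and -1.98 (-2.17 to -1.97) in uninduced Ifnar1+/+ mice. In Ifnar1+/+ mice given PBS it was -2.47 (-2.73 to -2.03) on day 4 and -2.79 (-3.15 to -2.54) on day 6. The ranges on day 4 overlapped those of uninduced mice in both genotypes, and those on day 6 did not. Relative to 10 Ly6C-high monocyte markers the Padi4 medians in labelled Ifnar1-/- mice were higher after pristane. They were -1.44 in uninduced, -0.71 in day 4 and -1.02 in day 6 mice. In Ifnar1+/+ mice the medians were -1.82 in uninduced mice and -1.95 on both days after PBS. After spermine they were -1.45 and -1.54 on the 2 days, also higher than in uninduced Ifnar1+/+ mice. These values describe the mice and were not tested.

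**Figure D4:**
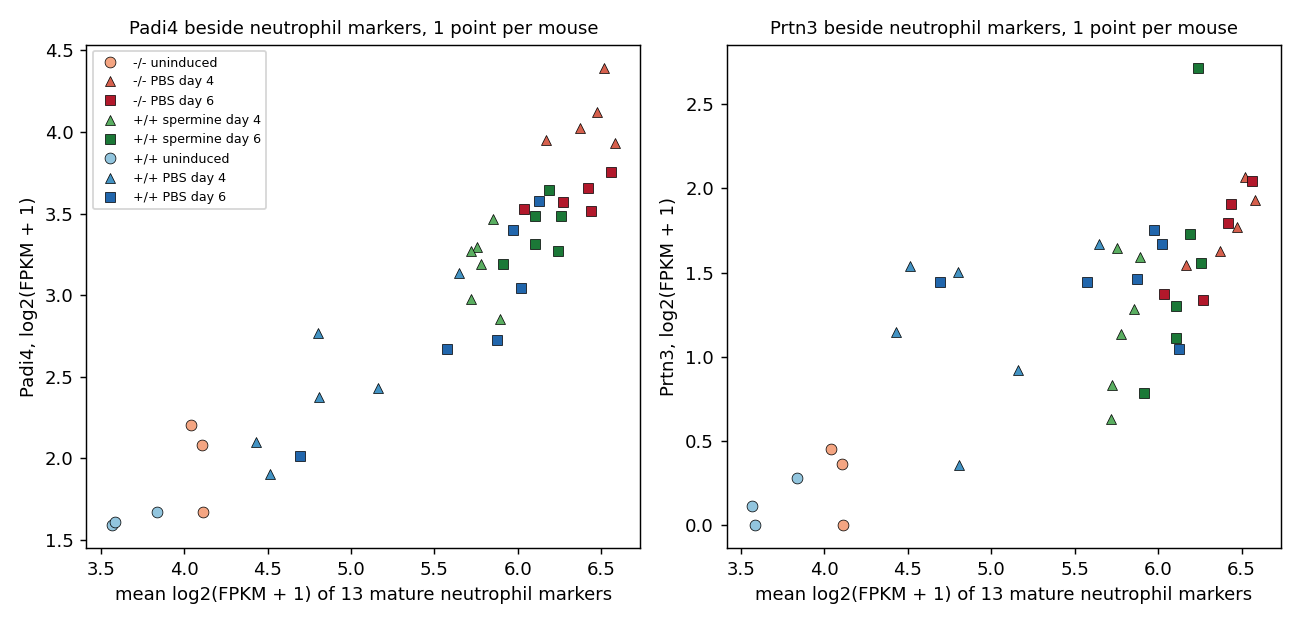
Level of Padi4 (left) and Prtn3 (right), as log2(FPKM + 1), against the mean log2(FPKM + 1) of 13 mature neutrophil markers in the same mouse, by group. Padi4 lies along a band in which the labelled Ifnar1-/- mice on day 4 are at the top, and Prtn3 scatters more widely, with the spermine day 6 mouse at 5.57 FPKM above the rest.

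Granule genes that are transcribed at later steps than the primary granule genes were abundant enough to test. Of 13 such genes 12 were tested, and 10 rose on day 4 and 11 on day 6 in Ifnar1+/+ mice given PBS (median 1.55 and 1.91) and 11 on both days in labelled Ifnar1-/- mice (2.70 and 2.53). Lcn2, an iron-scavenging protein of secondary granules, changed by 4.08 ± 0.32 in labelled Ifnar1-/- mice on day 4 and by 3.82 ± 0.32 on day 6. Between genotypes on day 4, 10 of 12 were higher (median 1.51), such as Lcn2 (2.15 ± 0.26), the gelatinase Mmp9 (1.55 ± 0.20) and the surface antigen gene Cd177 (1.85 ± 0.27). On day 6 between genotypes 3 were higher, Camp (cathelicidin, 1.45 ± 0.30), Ltf (lactoferrin, 1.42 ± 0.29) and Ngp (1.31 ± 0.36), and Itgb2l was lower (-0.73 ± 0.20).

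After spermine the later granule genes that were called on day 4 went both ways, and 7 of 12 were not called. Whether the direction followed the type of granule was not tested. Of 12 tested, 3 rose, among them Mmp9 (0.96 ± 0.19, limma adjusted p = 0.00061) of the late gelatinase granules and Hp (haptoglobin, 0.97 ± 0.24, adjusted p = 0.00551). Another 2 fell, Ltf (-1.42 ± 0.28, adjusted p = 0.000405) and Camp (-1.27 ± 0.28, adjusted p = 0.00181), whose proteins fill the secondary granules made in myelocytes. Without the 7 libraries with few mitochondrial reads 1 rose and 3 fell, and with a fixed library total without hemoglobin genes 8 rose and 2 fell, where the median of all genes shifted by 0.51. On day 6 after spermine none of the 12 was called (median 0.18).

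Genes whose products work beside the proteases and Padi4 were called in part. Of 15 partners of extracellular trap release, 13 were tested: 1 and 5 rose on day 4 and day 6 in Ifnar1+/+ mice given PBS and 6 and 5 in labelled Ifnar1-/- mice. Between genotypes on day 4, 9 were higher and 1 lower (median 0.64), among them the integrin gene Itgam (1.37 ± 0.18). After spermine 3 were higher on day 4, among them Itgam (0.69 ± 0.17) and Selplg (0.56 ± 0.15), and none on day 6. Without the 7 libraries with few mitochondrial reads 3 partners were higher between genotypes on day 4 and none after spermine, and with a fixed library total without hemoglobin genes 12 of 13 were higher in each. That total also raised the median of all genes in both comparisons. Of 5 genes that process, pack or inhibit the serine proteases, 0 and 2 were higher on day 4 and day 6 in Ifnar1+/+ mice given PBS, 2 and 2 in labelled Ifnar1-/- mice, 1 between genotypes and 2 after spermine on day 4. Serpinb6a, a serine protease inhibitor, was lower in labelled Ifnar1-/- mice on day 4 than in uninduced ones (-0.89 ± 0.29) and higher after spermine than after PBS (0.76 ± 0.23). Ctsc, whose product activates all 3 proteases, rose by 0.81 ± 0.18 on day 6 in Ifnar1+/+ mice and by 0.94 ± 0.19 and 0.71 ± 0.19 on the 2 days in labelled Ifnar1-/- mice. Slpi, an inhibitor of elastase and cathepsin G, was higher in labelled Ifnar1-/- than Ifnar1+/+ mice on day 4 (1.8 ± 0.31) and after spermine than after PBS (1.30 ± 0.30), and neither was called on day 6.

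**Figure D5:**
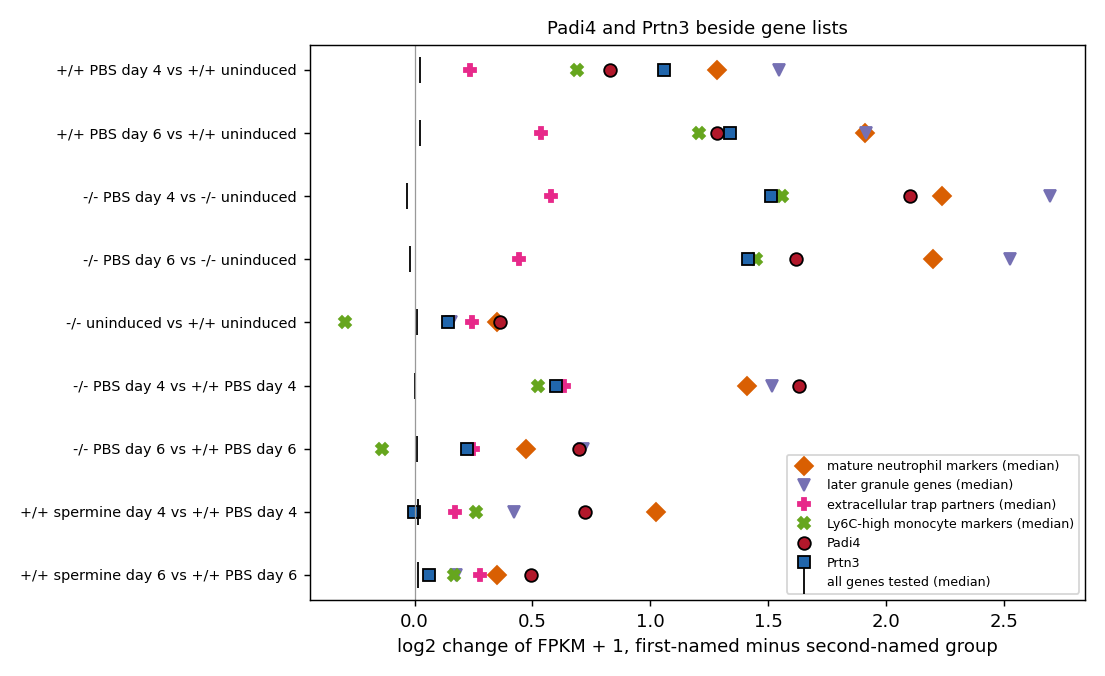
Log2 change (x axis) of Padi4 and Prtn3 beside the median change of 4 gene lists and of all tested genes (vertical ticks), first-named minus second-named group. Padi4 lies between the list of extracellular trap partners and the later granule genes in the 4 comparisons with uninduced mice, and Prtn3 lies near 0 in both spermine comparisons.

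Markers of the progenitors that transcribe primary granule genes were at low levels. Of 11 (Ms4a3, Prss57, Cd34, Kit, Flt3, Myb, Gfi1, Cebpe, Cebpa, Mki67 and Top2a), 6 passed the filter, and the summed level of the 11 was 5.57 to 16.5 FPKM in all mice. Against uninduced mice, Kit (0.87 ± 0.13) and Cebpa (0.90 ± 0.28) were higher on day 4 and Kit (0.72 ± 0.13) and Mki67 (0.77 ± 0.22) on day 6 in labelled Ifnar1-/- mice, and none of the 6 was called in Ifnar1+/+ mice given PBS. Between genotypes on day 4, 3 were higher, the stem cell factor receptor Kit (0.73 ± 0.11) and the granulocyte transcription factors Cebpe (0.95 ± 0.24) and Cebpa (0.83 ± 0.23), and Top2a was lower (-0.49 ± 0.12). After spermine the cycling genes Top2a (-0.51 ± 0.12) and Mki67 (-0.71 ± 0.17) were lower on day 4. Neither was called lower without the 7 libraries with few mitochondrial reads or with fixed library totals. Monocytes also carry serine protease transcripts early in their formation: of 10 Ly6C-high monocyte markers 8 rose on day 6 in Ifnar1+/+ mice given PBS and 8 and 7 on the 2 days in labelled Ifnar1-/- mice, and none was called after spermine. The part of either cell type in the Prtn3 change was not tested.

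The genes most like Padi4 over the 40 libraries, by Pearson correlation of log2(FPKM + 1), were Tarm1 (0.957), Pirb (0.953), Rasgrp4 (0.953), Lilr4b (0.950) and Mmp9 (0.949). Over deviations from the 8 group means they were Rab44 (0.827), Rasgrp4 (0.826), Pirb (0.814), Tarm1 (0.806) and Lilr4b (0.795), so 4 genes were in both sets. For Prtn3 the 5 were F10 (0.868), Rnpep (0.867), Mvp (0.862), Lgals3 (0.852) and Glrx (0.851), and within groups Pstpip1 (0.738), Snx17 (0.715), Gpr108 (0.697), Ndufc2 (0.691) and Ralb (0.682), with none shared. For Padi2 the nearest were Usp22 (0.695) and Zhx1 (0.683), and within groups Zhx1 (0.731). Padi4 and Prtn3 correlated at 0.703 over the libraries and at 0.133 within groups, and Padi4 and Padi2 at -0.149 and -0.421. These values share the libraries, their scaling and their hemoglobin share, and describe the 40 libraries.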

How the data were processed

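Poly-T-selected RNA of whole blood was sequenced in 40 mice. The FPKM values are the authors' own, deposited as 1 table; per the submitters' processing notes, reads were handled with featureCounts 1.5.0-p3, HISAT2 2.0.5, DESeq2 1.20.0, CASAVA 1.8 and fastp on GRCm38 (mm10), with no step given for any of them. The deposited FPKM share 1 scale by median of ratios, and whole reads were recovered from 100% of nonzero values within 0.001 read. Depth was 3577936 to 9365306 reads a library outside hemoglobin genes.

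Groups came from the sample labels. The filter kept 11829 of 54532 genes (3 of the 6) that reached 1 FPKM in 3 or more libraries, and 1 fit of log2(FPKM + 1) over 8 group means was made with limma 3.58.1 (trend, empirical Bayes) in R 4.3.3. Calls required an adjusted p (Benjamini-Hochberg, over all tested genes) under 0.05. The FPKM described as scaled in the planned design needed no further constant. Library measures were compared by two-sided exact permutation of mice. Counting limits (3 reads for a count of 0) cover counting error only.

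The 6 genes, the marker lists and the comparisons were chosen with earlier results of these data known. Beside the 6 genes, the text names at most 4 genes of a list with the smallest p in a comparison and the 5 genes most like each tested one; some list genes are not reported here. Alternatives were fixed library totals with and without hemoglobin genes, a pseudocount of 0.1, no filter, only the groups compared, voom on recovered reads, the replicate number as a block, leaving out each mouse, and leaving out 7 libraries with few mitochondrial reads; voom with no filter, and other scalings for the gene lists, were added after seeing the data. The fit was tested on simulated data for labelled Ifnar1-/- against Ifnar1+/+ mice on day 4 (11829 genes): it recovered 82 of 100 genes changed by a log2 of 1 and 96 of 100 changed by 2, with 10 false calls. Sequences and figures were handled with matplotlib 3.10.9, numpy 2.4.6 and pandas 2.3.3 in Python 3.11.15.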

Additional observations from a re-analysis of the deposited data

Results flagged for a closer look

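In 4 of 36 tests of a gene in a group of 5 or 6 mice, 1 mouse lay far above the rest of its group by Dixon's gap ratio. Chance gives about 1 in 20 for continuous values, a rate that does not apply to the Mpo and Ctsg values, which are 1 to 13 reads. Prtn3 stood at 5.57 FPKM (85 reads) in spermine day 6 mouse 2, and the next mouse of the group at 2.31 FPKM. The same library had the highest Elane level of all 40 (1.04 FPKM, 9 reads), and it is 1 of the 7 with few mitochondrial reads. Mpo stood at 0.271 FPKM (13 reads) in spermine day 4 mouse 1, and the next mouse at 0.0845 FPKM. Mpo also stood at 0.286 FPKM (7 reads) in labelled Ifnar1-/- day 6 mouse 3, and the next mouse at 0.0502 FPKM. Ctsg stood at 0.0987 FPKM in PBS day 6 mouse 1 of Ifnar1+/+, which is a single read, with the other 5 mice at 0.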

How the results depend on the processing

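Counts of the 6 genes called kept within 1.5 times of their value under most alternatives, and the exceptions follow. The share of all tested genes called under each alternative is not given beside them, so nothing is read from these counts about the 6 genes. Those against uninduced mice also include Prtn3, which passed the filter through mice given pristane alone. For Ifnar1+/+ PBS day 4 against uninduced mice 2 genes became 0 with both fixed library totals, with no filter and with only the groups compared, 1 with voom and no filter, and 0 to 2 leaving out 1 mouse. For day 6 against uninduced 2 became 1 (fixed total without hemoglobin), 0 (with it) and 1 (only the groups compared), and in labelled Ifnar1-/- mice on day 6 2 became 1 (fixed total with hemoglobin). For spermine against PBS on day 4, 1 became 2 and 3 with the fixed totals without and with hemoglobin and 0 without the libraries with few mitochondrial reads; on day 6, 0 became 1 with the fixed total with hemoglobin and 0 to 1 leaving out 1 mouse. For labelled Ifnar1-/- against Ifnar1+/+ mice on day 4, 1 became 3 with both fixed totals and 1 to 2 leaving out 1 mouse; on day 6, 1 became 0 with both fixed totals, with no filter, with voom and no filter, without the libraries with few mitochondrial reads and with only the groups compared, and 0 to 1 leaving out 1 mouse. For labelled Ifnar1-/- mice, day 6 against day 4, 0 became 2 and 3 with the fixed totals and 1 with voom and no filter, without the libraries with few mitochondrial reads and with only the groups compared. The fixed totals without and with hemoglobin shifted the median of all genes by 0.45 and 0.68 (genotypes, day 4), 0.51 and 0.70 (spermine, day 4), 0.28 and 0.42 (spermine, day 6) and -0.48 and -0.73 (labelled Ifnar1-/-, day 6 against day 4).

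Values that changed sign lay between -0.22 and 0.22 in the main fit. For Padi2 these were day 6 against day 4 after PBS (-0.02; 0.0499 and 0.0489 with the fixed totals, 0.0121 with voom and no filter, 0.15 without the libraries with few mitochondrial reads), spermine on day 4 (-0.14; 0.48 and 0.73 with the fixed totals and 0.0821 without those libraries), spermine on day 6 (-0.22; 0.12 and 0.30 with the fixed totals) and labelled Ifnar1-/- day 6 against uninduced mice (0.13; -0.25 and -0.15). For Padi4 it was spermine day 6 against day 4 (0.22; -0.00724 and -0.0778 with the fixed totals). For Prtn3 these were spermine on day 4 (-0.00; 0.38 and 0.56 with the fixed totals, 0.0447 with a pseudocount of 0.1) and on day 6 (0.06; -0.00515 and -0.00498 with voom, with and without the filter, and -0.19 without the libraries with few mitochondrial reads). Leaving out 1 mouse, Padi2 ranged from -0.25 to 0.0349 and from -0.28 to 0.0110 (Ifnar1+/+ day 4 and day 6 against uninduced), from -0.0932 to 0.10 (day 6 against day 4 after PBS) and from -0.00979 to 0.30 (labelled Ifnar1-/- day 6 against uninduced), and Prtn3 after spermine from -0.17 to 0.11 on day 4 and from -0.17 to 0.21 on day 6. Padi2 after spermine on day 4 was called higher with the fixed totals (limma adjusted p = 0.00688 without and 0.00134 with hemoglobin genes). These totals also raised the median of all genes in that comparison. The cause of the changes of sign was not tested.

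With the replicate number as a block no call of the 6 genes changed (Padi4 on day 4 against uninduced Ifnar1+/+ mice 0.82, adjusted p = 0.0463). Same-numbered libraries correlated above 0.1 in 0 to 5 pairs of a comparison (5 of 6 for spermine day 6 against day 4) and never in every pair. For spermine day 6 against day 4 the 6 correlations ran from 0.0496 to 0.691. So few pairs cannot show whether same-numbered samples shared a litter, cage or batch, which the labels do not say. Read depth limits Mpo, Elane and Ctsg, and few uninduced mice limit the comparisons with them.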
